A study of Mus musculus with 12 samples.

Results

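Fulvestrant alone was compared with vehicle in 6 of the 12 RNA-Seq samples of the series, taken by their treatment labels. The cells were hernia-associated fibroblasts (HAFs), primary skeletal muscle fibroblasts from the lower abdominal muscle (LAM) of Arom hum mice, a line that carries the human aromatase gene and makes extra estradiol (E2) from testosterone. The vehicle group received ethanol and DMSO (n = 3), and the fulvestrant group received 100 nM fulvestrant with no added E2 (n = 3), both for 48 h. The other groups received 10 nM E2 (n = 3) or 10 nM E2 with 100 nM fulvestrant (n = 3), and they are used here to set the drug effect without E2 beside that with E2. According to the methods, all cultures were passaged once, starved overnight without serum or phenol red, given the drug or DMSO before E2 or ethanol, and kept in a little charcoal-stripped serum. All 4 groups carried the Arom hum transgene, so no cells without it enter the comparison, and the cultures are fibroblasts apart from the muscle fibers and hormone supply of the animal.

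ESR1, estrogen receptor-α, is a nuclear receptor that binds estrogen response elements or other transcription factors and recruits coactivators when E2 occupies it. Fulvestrant is a steroidal ESR1 antagonist that blocks this activity and lowers the receptor protein, and it is also used to ask what the receptor does without added hormone. Stromal fibroblasts of hormone-responsive tissues express ESR1 and respond through matrix genes, growth factors and Wnt ligands.

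The reads on the 13233 listed genes ranged from 18827792 to 44040507 in these 6 samples. All 10 fibroblast markers were listed, and their summed normalized count was 623284 to 737691 with vehicle and 544498 to 712954 with fulvestrant. Of these markers, only Lum, a matrix proteoglycan, was called. None of the 10 myogenic, 5 adipocyte, and 7 mesothelial or epithelial markers was listed, and the table lists only genes with at least 10 reads in every sample. Of the 8 endothelial markers Tek was listed, at a summed 58.4 to 277 with vehicle and 70.6 to 193 with fulvestrant, and 3 of 9 immune markers (Cd68, Lyz2 and Cd14) summed to 233 to 487 and 266 to 285. Smooth muscle and pericyte markers (4 of 7) summed to 2269 to 3600 with vehicle and 2042 to 4411 with fulvestrant. Schwann markers (2 of 5) summed to 181 to 223 with vehicle and 112 to 171 with fulvestrant, ranges that did not overlap. No marker of these 4 other cell types was called, and their part in the results was not tested. The first principal component of the 6 samples held 75.2% of the variance and separated the replicate 1 samples (48.56 and 59.52) from replicates 2 and 3 (-38.34 to -16.35). The second held 13.6% and separated vehicle (15.12 to 16.94) from fulvestrant (-24.74 to -11.13). The tests therefore compared samples of equal replicate number, with that number as a block in the model. Nothing in the labels says whether equal numbers mark the same animal or culture, so the p-values measure only the spread between these samples.

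Changes are given on the log2(normalized count + 1) scale, which understates those of low genes, and as folds on that scale. With fulvestrant alone 362 genes were higher (2.74% of 13233) and 330 were lower (2.49%), together 5.23%, at a limma adjusted p under 0.05 and a change over 1.2-fold. All of these moved the same way in all 3 pairs. The called rises had a median of 0.66 and the falls a median size of 0.72 on the log2 scale, 81 rises and 83 falls exceeded 2-fold, and 6 in each direction exceeded 4-fold. At an unadjusted p under 0.05 there were 2891 genes. Without the replicate block 0 genes were called and 706 had an unadjusted p under 0.05, and the median standard error was 0.18 in place of 0.1. Leaving out the replicate 1 pair gave 1251 rises and 957 falls, leaving out the replicate 2 pair 48 and 52, and leaving out the replicate 3 pair 9 and 11. In these cultures a smaller share of expressing cells and a lower level per cell cannot be told apart.

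**Figure D1:**
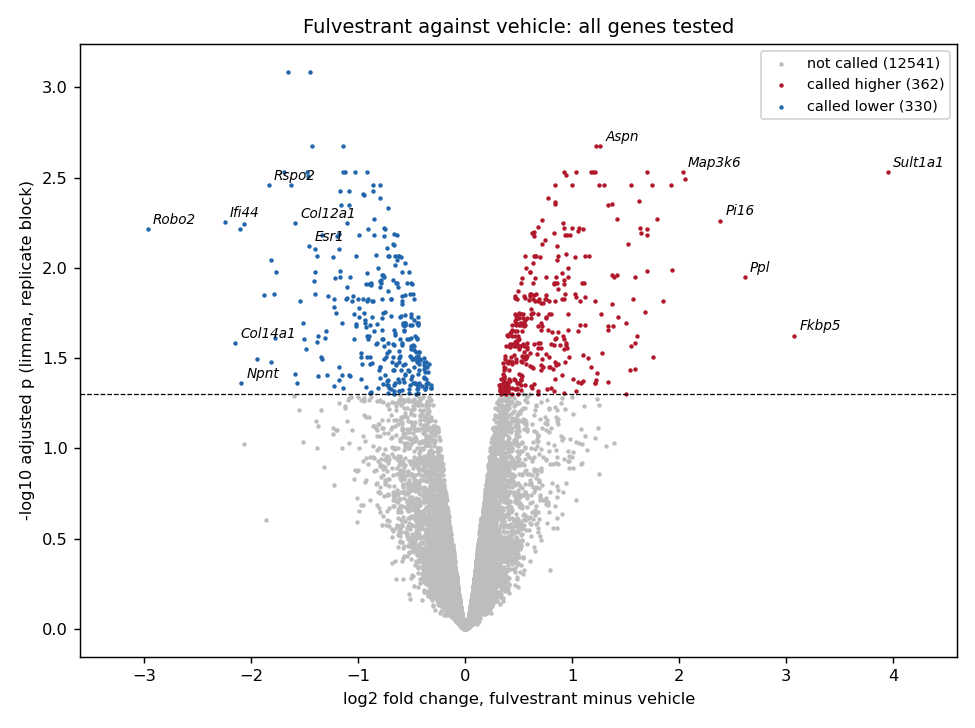
Each point is 1 of 13233 genes, with the log2 fold change (fulvestrant minus vehicle) on the horizontal axis and -log10 of the limma adjusted p on the vertical axis. The dashed line marks an adjusted p of 0.05, with 362 genes called higher at the right and 330 called lower at the left. Sult1a1 and Fkbp5 lie farthest right and Robo2 farthest left.

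The receptor gene itself fell. Esr1 (ENSMUSG00000019768, chr10:4611593-5005614 of GRCm38, plus strand) had 515, 247 and 283 normalized counts in vehicle replicates 1 to 3 and 222, 101 and 76.2 with fulvestrant. Each fulvestrant sample lay below every vehicle sample, and in both groups replicate 1 was the highest. The means were 348 ± 146 and 133 ± 77.8 (SD, n = 3), a 2.75-fold lower level (log2 change -1.46, SE 0.17, adjusted p = 0.00757). Pgr, the progesterone receptor and a classic ESR1 target (ENSMUSG00000031870, chr9:8899833-8968611, plus strand), had 25.4, 85.3 and 104 with vehicle and 13.0, 21.5 and 16.2 with fulvestrant. Its groups did not overlap, although vehicle replicate 1 lay close above the highest fulvestrant sample. The log2 change was -1.82 (SE 0.35, adjusted p = 0.0333), and by pair it was -0.91, -1.94 and -2.61. Nr3c1, the glucocorticoid receptor, changed by -0.36 (adjusted p = 0.0882) and was not called. Esr2 and Gper1 were not listed in the table.

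Genes that textbooks give as E2-induced did not move together. Of 28, 21 were measured, 5 fell and 4 rose (42.9% called, against 5.23% of all genes), with a median of 0.08 against 0.01 over all genes. The falls besides Pgr were in Igfbp4 (-0.86), which binds insulin-like growth factors, Tgfb2 (-0.83), a TGF-beta ligand, Igf1 (-0.59) and the chemokine Cxcl12 (-0.56). Ramp3, an accessory protein of the calcitonin-family receptors, rose from 47.4 ± 3.18 to 155 ± 69.4 (SD, n = 3), a 3.03-fold change. The other rises were in Myc (0.77), a growth regulator, Egr1 (0.64), an immediate early factor, and Cd44 (0.60), a hyaluronan receptor. Ccnd1, cyclin D1, was at 6560 and 6572 in the replicate 1 pair and at 2973 and 6016 in the replicate 2 pair (log2 change 0.65, adjusted p = 0.101).

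The study's own list of E2-high genes was chosen by E2 against E2 plus fulvestrant in this same experiment, together with receptor binding and open chromatin, so its direction is not independent evidence. Of the 58 genes, 57 were measured. Every measured member lay below 0 with fulvestrant alone (6413 of 13233 over all genes), and 27 of them were called lower and 0 higher, against 2.49% of all genes called lower. The median was -0.52, and it was -0.61, -0.42 and -0.49 in the 3 pairs. Piezo2, a mechanically gated cation channel, went from 3741 ± 1316 to 1166 ± 182 (SD, n = 3), a 3.09-fold fall with no overlap (adjusted p = 0.00347). Ccn3, a secreted matricellular protein, had 25809, 4883 and 4654 with vehicle and 3803, 2282 and 2460 with fulvestrant (log2 change -1.59, adjusted p = 0.0387). The replicate 1 vehicle sample was far above the rest for this gene. Further falls were in Cdon, a co-receptor of Hedgehog signaling (-0.80), Nrp2, a neuropilin (-0.88), and Adamts6, a matrix protease (-0.44). The members at the other end, Aff3 (-0.08) and Apcdd1 (-0.11), were not called.

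The study's list of E2 plus fulvestrant-high genes lay on the other side. Of its 34 genes 32 were measured, each lay above 0 (6820 of 13233 over all genes), and 17 were called higher and 0 lower, with a median of 0.56. Over all genes 2.74% were called higher. It was chosen in the same way and is likewise not independent evidence. Gsn, the actin-severing protein gelsolin, rose from 57144 ± 9705 to 134372 ± 36086 normalized counts (SD, n = 3), and its groups did not overlap. Gda, guanine deaminase, had 14.3, 339 and 254 with vehicle and 90.2, 640 and 559 with fulvestrant, a 2.91-fold rise in which replicate 1 lay below the others in both groups.

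**Figure D2:**
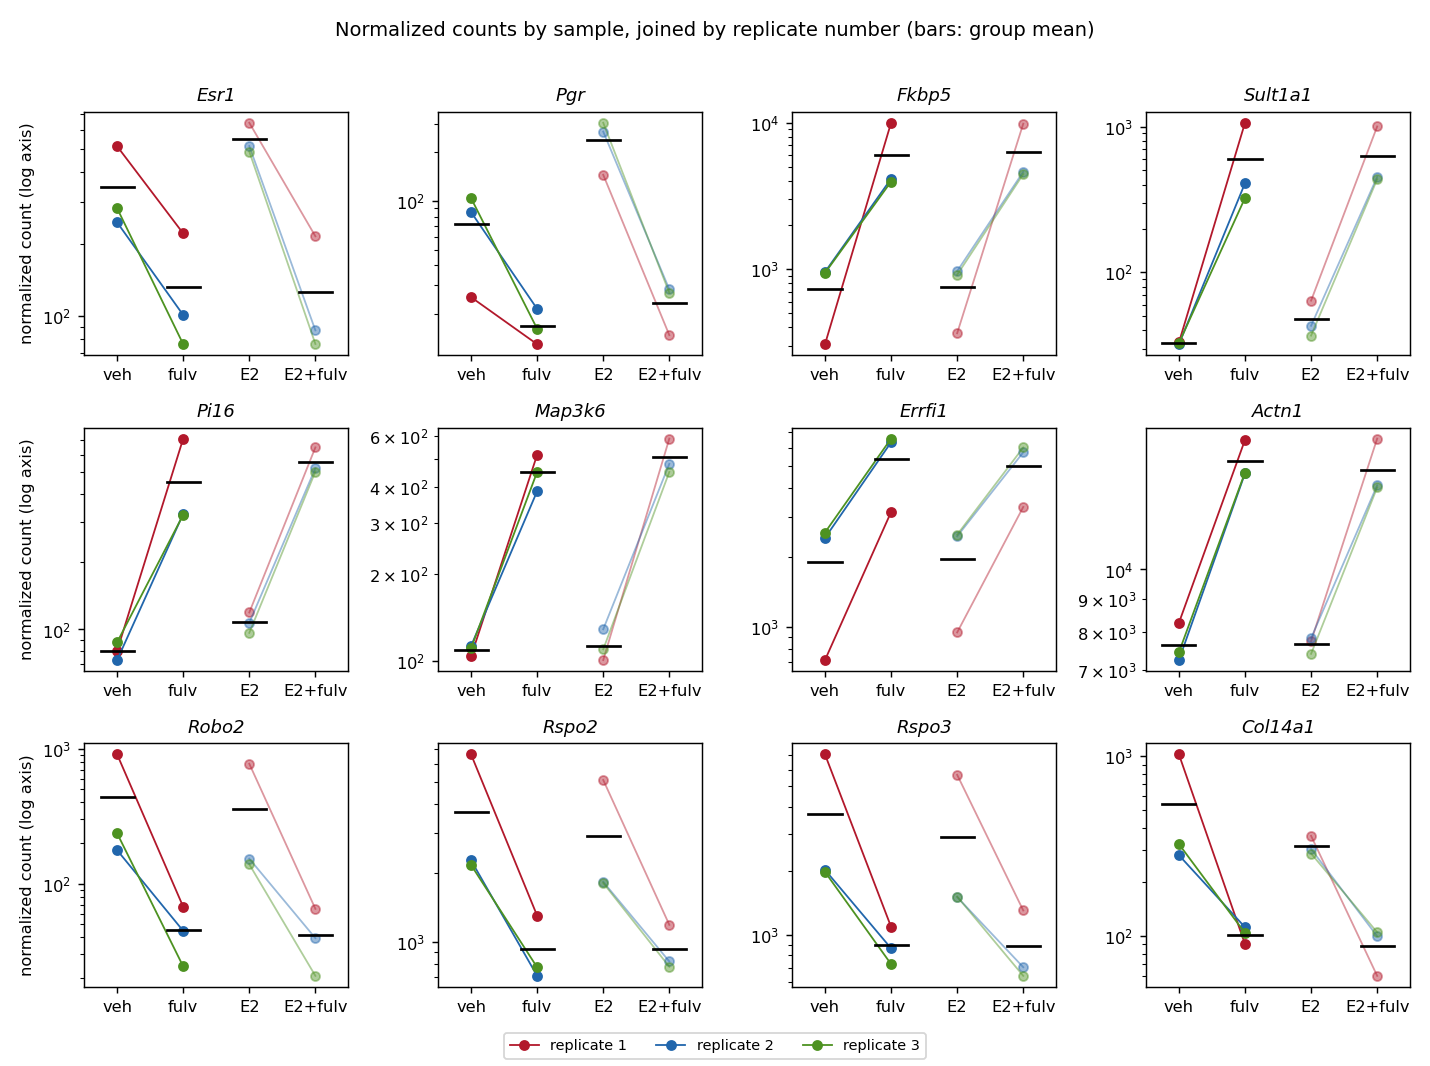
Normalized counts (log axis) of 12 genes in each sample, with vehicle and fulvestrant joined by replicate number at the left of each panel, E2 and E2 plus fulvestrant at the right in lighter color, and the group mean as a black bar. Esr1, Pgr, Robo2, Rspo2, Rspo3 and Col14a1 go down with fulvestrant in each pair and the other 6 genes go up, while replicate 1 often sits apart in level.

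The largest rises included several genes listed as glucocorticoid-responsive, among them Sult1a1 and Fkbp5. Sult1a1, a sulfotransferase for phenols and steroids (ENSMUSG00000030711, chr7:126672865-126676432, minus strand), had 33.1, 32.2 and 32.8 with vehicle and 1061, 409 and 324 with fulvestrant. The vehicle samples were nearly equal and each fulvestrant sample was far above them (log2 change 3.95, SE 0.31, adjusted p = 0.00296). Fkbp5, a co-chaperone that binds steroid receptor complexes (ENSMUSG00000024222, chr17:28399094-28517527, minus strand), had 307, 956 and 941 with vehicle and 9974, 4136 and 3957 with fulvestrant. Replicate 1 was the lowest vehicle sample and the highest fulvestrant sample, so the pair differences were 5.02, 2.11 and 2.07 and the standard error was 0.53 for a change of 3.07 (adjusted p = 0.0238). Map3k6, a stress-activated kinase, rose from 109 ± 4.98 to 452 ± 65.1 (SD, n = 3), a 4.08-fold change with no overlap. Errfi1, an inhibitor of EGF receptor signaling, rose from 1906 ± 1033 to 5356 ± 1912 (SD, n = 3), and Mt2, a metallothionein, from 3160 ± 1748 to 7926 ± 3623 (SD, n = 3).

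Of the 24 genes listed as glucocorticoid-responsive, 21 were measured, 16 were called higher and 1 lower, against 2.74% and 2.49% of all genes. The median log2 change was 0.86, and it was 1.18, 0.63 and 0.77 in the 3 pairs. With the replicate 1 pair left out, 18 were called higher and 1 lower (1251 and 957 over all genes) and the median was 0.69. Other members that rose were Glul (1.39), glutamine synthetase, which shares sequence with a listed pseudogene copy, Dusp1 (1.38), a MAP kinase phosphatase, Mt1 (0.96), Pdk4 (0.86), which restrains pyruvate oxidation, Sgk1 (0.85), a serum- and glucocorticoid-induced kinase, and Per1 (0.75), a clock gene. The single fall was in Cyp7b1 (-1.23), an oxysterol hydroxylase. Tsc22d3, also called GILZ, changed by 0.90 (adjusted p = 0.0523), with 1.61 in pair 1 and 0.50 in pair 2, and was not called. The list was put together with earlier results of these data known. Among the 18 measured core clock genes, Per1 was the only call.

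The promoter windows of the called genes were searched for the letters of steroid receptor elements, because the list above is named for a receptor with a known element. RefSeq windows of GRCm38.p6, from 250 bases before to 50 bases after each start, were found for 9439 of the tested genes. The letters AGAACANNNTGT or GGAACANNNTGT, on either strand, are a partly degenerate form of the element that glucocorticoid and progesterone receptors bind. They were present in a window of 0.562% of these genes, in 2.55% (7 of 275) of the genes called higher, in 0.442% (1 of 226) of those called lower, and in 18.8% (3 of 16) of the glucocorticoid-responsive list. The estrogen response element GGTCANNNTGACC was present for 0.0106% of the genes with a window (1 gene) and for 0 of the called genes. Its separate GGTCA or TGACC letters were common and were present for 41.3% of the genes with a window, 40.0% of those called higher and 33.6% of those called lower. The 3 matching members of the list (Map3k6, Sgk1 and Mt1) are also among the 7 matching genes called higher, so these shares are not separate evidence. The list is named for a receptor of this element and was put together with earlier results known, so its share is not independent evidence. These matches describe letters in a short window and say nothing about binding. The stretches below hold the match in capitals with the bases at each side, from the 3 members of the list and from Plce1 (phospholipase C epsilon, log2 change 1.01), 5′ to 3′ on the strand of the gene. For Sgk1 (chr10:21993671-21993742, plus strand) a second match on the other strand overlaps the first. The others lie at chr4:133240609-133240680 (Map3k6), chr8:94178967-94179038 (Mt1) and chr19:38524044-38524115 (Plce1), each on the plus strand.
Map3k6: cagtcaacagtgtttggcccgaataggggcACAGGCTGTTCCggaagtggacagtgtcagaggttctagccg
Sgk1: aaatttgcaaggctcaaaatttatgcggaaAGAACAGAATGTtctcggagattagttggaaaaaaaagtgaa
Mt1: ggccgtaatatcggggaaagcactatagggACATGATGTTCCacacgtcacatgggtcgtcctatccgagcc
Plce1: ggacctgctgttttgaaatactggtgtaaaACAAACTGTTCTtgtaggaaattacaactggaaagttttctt

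Further rises over 3-fold were in genes of varied function. Pi16, a peptidase inhibitor that marks adventitial fibroblast progenitors (chr17:29317680-29330593, plus strand), had 80.5, 73.1 and 87.7 with vehicle and 707, 327 and 324 with fulvestrant. Its 5.2-fold rise had no overlap (adjusted p = 0.00547). Ppl, the desmosomal linker periplakin, rose from 100 ± 54.2 to 535 ± 51.4 (SD, n = 3). Nell2, a secreted glycoprotein, had 250, 24.4 and 15.4 with vehicle and 1183, 97.5 and 63.2 with fulvestrant. The groups overlapped because replicate 1 was far above the others, while the pair differences were close, at 2.24, 1.96 and 1.97. Ace, angiotensin-converting enzyme, rose 3.6-fold, Serpina3n, a secreted protease inhibitor of a family of close paralogs, 3.45-fold, and Ereg, the EGF receptor ligand epiregulin, 3.33-fold. Havcr2, better known as the immune receptor TIM-3, changed by 0.67 in pair 1 and by 2.45 and 2.13 in the others. Ctla2a (3.79-fold), a cathepsin inhibitor, shares 16.3% of its exon sequence with another gene on the same strand, so its level is uncertain.

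**Figure D3:**
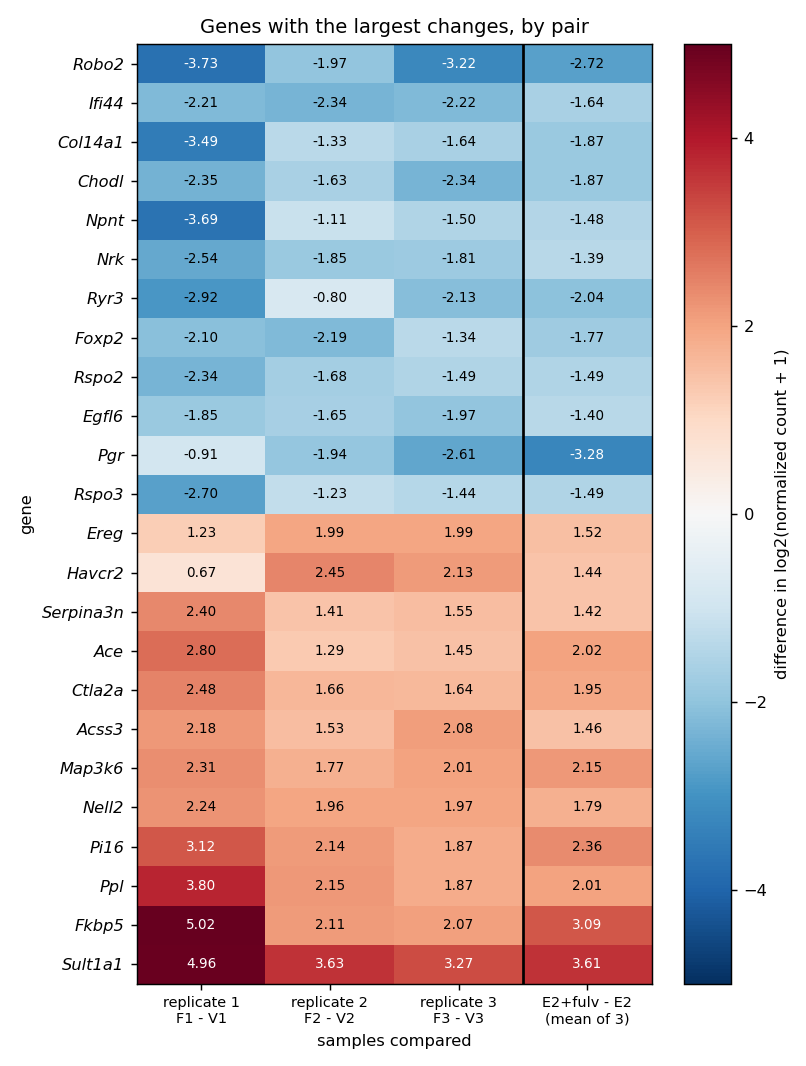
Differences in log2(normalized count + 1) for the 12 largest falls and 12 largest rises, in each same-numbered pair of fulvestrant minus vehicle (3 columns at the left) and as the mean of E2 plus fulvestrant minus E2 (right column). Only genes with 1 direction in all 3 pairs were taken, so the shared sign of the 72 pair differences was fixed. Pair 1 holds the extreme values, such as 5.02 for Fkbp5 and -3.73 for Robo2.

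Among the 16 measured fibroblast progenitor genes, 4 rose and 1 fell, where 2.74% and 2.49% of all genes did. Besides Pi16, these were Creb5 (1.28), a transcription factor, Anxa3 (0.63), an annexin, and Ackr3 (0.53), a scavenging receptor for CXCL12, and the fall was in Sema3c (-0.80), a secreted semaphorin. Cd34 had 6339, 9330 and 9108 with vehicle and 27826, 11374 and 12129 with fulvestrant, and with this spread it was not called (log2 change 0.94, adjusted p = 0.156). The list's median was 0.61 in pair 1, 0.26 in pair 2 and 0.09 in pair 3.

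The largest fall was in Robo2, a receptor for Slit guidance proteins (ENSMUSG00000052516, chr16:73891839-74411825, minus strand). It had 908, 177 and 236 normalized counts with vehicle and 67.3, 44.6 and 24.3 with fulvestrant. The groups did not overlap and the level was 7.86-fold lower (log2 change -2.97, SE 0.32, adjusted p = 0.00609). Ifi44, an interferon-stimulated gene, was 4.77-fold lower, with 74.0 ± 8.73 against 14.7 ± 1.60 (SD, n = 3) and nearly equal pair differences. Chodl (chondrolectin, a membrane lectin) and Foxp2 (a forkhead factor) were 4.31-fold and 3.67-fold lower. Npnt, the integrin α8 ligand nephronectin, had 4704, 686 and 688 with vehicle and 364, 317 and 243 with fulvestrant. Its replicate 1 vehicle sample was far above the others, and the difference was -3.69 in pair 1 against -1.11 in pair 2. Nrk (-2.07), a kinase, and Ryr3 (-1.95), a calcium release channel, also had a high replicate 1 and overlapping groups.

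Genes of the Wnt pathway fell more often than they rose. Of 53 listed genes 35 were measured, 9 were called lower and 2 higher (2.49% and 2.74% over all genes), with a median of -0.29 (-0.21, -0.28 and -0.40 by pair). R-spondins are secreted ligands that bind LGR receptors and keep Frizzled receptors at the cell surface. Rspo2 had 6625, 2277 and 2174 with vehicle and 1304, 711 and 775 with fulvestrant. Rspo3 had 7080, 2023 and 1979 with vehicle and 1091, 864 and 728 with fulvestrant. For both genes each fulvestrant sample lay below every vehicle sample. The changes were -1.84 (SE 0.15, adjusted p = 0.00347) and -1.79 (SE 0.25, adjusted p = 0.014), and Rspo1 changed by 0.43 (adjusted p = 0.0795). The secreted Wnt antagonists Sfrp2 (2040 ± 712 to 698 ± 428, SD, n = 3) and Sfrp1 (8421 ± 3883 to 4442 ± 2033, SD, n = 3) fell too, so both ligand-side activators and antagonists were among the falls. Smaller falls were in Nkd1 (-0.62), a feedback inhibitor, Prickle1 (-0.58), a planar polarity protein, Wnt5a (-0.57), a ligand, Fzd2 (-0.49), a receptor, and Adgra2 (-0.44), an adhesion receptor. The rises were in Tcf7l1 (0.52) and Vangl1 (0.46). Ctnnb1, beta-catenin, had 22588 ± 566 and 22013 ± 626 (SD, n = 3; adjusted p = 0.856), and the Wnt target Axin2 was not called (-0.25, adjusted p = 0.53).

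Collagen chains moved in both directions. Of 27 measured, 4 fell and 3 rose (25.9% called, against 5.23% of all genes), with a median of 0.07. Col14a1, a fibril-associated collagen (chr15:55307750-55520803, plus strand), had 1025, 282 and 325 with vehicle and 90.2, 112 and 104 with fulvestrant. It was 4.45-fold lower with no overlap (adjusted p = 0.0262). Col12a1, of the same collagen class, had 188320, 15042 and 17674 with vehicle and 45554, 6677 and 6005 with fulvestrant. Its replicate 1 samples were several times higher than the rest and the groups overlapped, although each pair fell (log2 change -1.59, adjusted p = 0.00567). Col27a1 (-0.95) and Col8a2 (-0.93) were also lower. The rises were in Col5a3 (1.19), a minor fibrillar chain, and in the basement membrane chains Col4a1 (0.68) and Col4a2 (0.56). The main fibrillar chains were not called: Col1a2 changed by -0.33 (adjusted p = 0.404), Col3a1 by -0.49 (adjusted p = 0.155) and Col1a1 by -0.43 (adjusted p = 0.112).

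Elastic fiber genes fell where they passed the test. Of 19 measured, 6 fell and 0 rose, with a median of -0.24, and 2.49% of all genes were called lower. These were Mfap4 (-1.03) and Fbn2 (-1.02), a microfibril-associated protein and a fibrillin, Hmcn1 (-0.99), a hemicentin, the latent TGF-beta binding proteins Ltbp1 (-0.57) and Ltbp2 (-0.43), and Fbln7 (-0.52), a fibulin. The abundant members Fbln2 (51127 ± 2634 and 52617 ± 4289, SD, n = 3) and Fbn1 (-0.07) were not called. Of 16 Adamts proteases, which cut proteoglycans and procollagens, 5 fell and 0 rose, again beside 2.49% of all genes. They were Adamtsl1 (-1.14), a protease-like protein without the catalytic part, Adamts4 (-0.92), Adamts7 (-0.66), Adamts10 (-0.50) and Adamts6 (-0.44). Adamts5 and Adamts1, the most abundant, changed by 0.08 and -0.13 and were not called.

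Of 18 matrix proteoglycans 2 rose and 3 fell (27.8% called, against 5.23% of all genes). Aspn, the small leucine-rich proteoglycan asporin, had 15678, 1801 and 1783 with vehicle and 41283, 4036 and 4142 with fulvestrant. The groups overlapped because of replicate 1, but the pair differences of 1.40, 1.16 and 1.22 were close (adjusted p = 0.00211). Vcan, the large proteoglycan versican, rose 2.14-fold, while Lum fell 2.26-fold, Gpc6, a glypican, fell 1.69-fold and Podn, podocan, 1.38-fold. The most abundant, Bgn (-0.33) and Dcn (-0.34), were not called. Of 28 collagen-processing genes 3 rose and 0 fell (10.7% called): Plod1 (0.75) and P4ha2 (0.62), which hydroxylate collagen, and Loxl4 (0.74), a cross-linking oxidase. Lox, at 0.04 (SE 0.16), and Sparc, at 0.01 (SE 0.13), were not called. Mmp16, a membrane metalloproteinase, fell (-0.95), and Timp1, a metalloproteinase inhibitor, rose (0.87).

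In the growth factor lists the calls were all falls. Of 18 IGF axis genes 6 fell and 0 rose, where 2.49% of all genes were called lower. Igf1 had 2474, 2419 and 2587 with vehicle and 1668, 1724 and 1567 with fulvestrant. These groups were narrow and apart, a 1.51-fold fall (adjusted p = 0.0106). The binding proteins Igfbp5 (-1.41), Igfbp3 (-1.08) and Igfbp4 (-0.86) and the adaptor Irs1 (-0.56) were lower, and the receptor Igf1r was not called (0.16, adjusted p = 0.345). The more abundant binding protein Igfbp6 moved the other way in each pair, from a mean of 20849 to 35576. It was not called by limma (0.68, adjusted p = 0.0907). The median of the list was -0.02. Igf2 (-0.74) shares 62.8% of its exon sequence with another gene on the same strand and is uncertain. Among 23 FGF, HGF and PDGF genes 3 fell and 0 rose, all ligands: Hgf (259 ± 49.2 to 101 ± 11.3, SD, n = 3), Pdgfd (-0.89) and Fgf7 (-0.66). Pdgfra (-0.26) and Fgfr1 (0.32) were not called. Hgf shares 6.7% of its exon sequence with another gene, so its level is uncertain to that extent.

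In the BMP pathway 5 of 29 genes fell and 2 rose (24.1% called, against 5.23% of all genes), with a median of -0.18. The falls were in the ligands Gdf10 (-1.55), Bmp3 (-1.51) and Bmp4 (-0.97), the target Id2 (-0.92) and the modulator Twsg1 (-0.32). The rises were in Acvrl1 (0.68), a type I receptor also known as ALK1, and Chrd (0.64), the antagonist chordin. In the TGF-beta pathway 5 of 30 fell and 1 rose (20.0% called), and the falls were in Tgfb2 (-0.83), Ltbp1, Ltbp2, the activin receptor Acvr2a (-0.37) and the transducer Smad3 (-0.32). The median of the list was 0.03.

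The calls among guidance, adhesion and cytoskeletal genes are set beside 2.74% of all genes called higher and 2.49% called lower. Of 26 semaphorin, plexin and neuropilin genes 4 fell and 0 rose: Nrp2, Sema3c, Sema5a (-0.79) and Sema6c (-0.61). Of 24 contractile genes 2 rose, Actn1 (alpha-actinin, 7657 ± 542 to 14680 ± 1014, SD, n = 3) and Tns1 (tensin, 0.71) and Mylk, myosin light chain kinase, fell (-0.56). Acta2, smooth muscle actin and the usual myofibroblast marker, was not called (0.27, adjusted p = 0.604), nor were Myh9 (0.10) and Flna (0.15). Of 18 Yap and Ccn genes, Ccn1 (0.71), Ccn5 (0.64) and Axl (0.49) rose and Ccn3 fell. Integrins Itga5 (0.64) and Itga11 (-0.39) were the 2 calls of 19. The channel Trpv4 rose from 37.4 ± 7.03 to 76.5 ± 4.63 (SD, n = 3).

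Interferon-stimulated genes lay mostly below 0. Of 25 measured, 5 fell and 0 rose (2.49% and 2.74% over all genes), 23 lay below 0 (6413 of 13233 over all genes), and the median was -0.37, with -0.19 in pair 1 and -0.49 and -0.46 in pairs 2 and 3. Besides Ifi44, the falls were in Ifit1 (-1.18), Oasl2 (-0.94), Mx2 (-0.93) and Irf1 (-0.37), which are antiviral effectors and a transcription factor. B2m (-0.28) and H2-D1 (0.15), of antigen presentation, were not called. With the replicate 1 pair left out 18 were called lower, as were 957 of all 13233 genes. Among 16 chemokine and cytokine genes Cxcl5 (-1.41), Cxcl16 (-0.62) and Cxcl12 fell and Ackr3 rose, and of 12 complement genes 2 fell, with Clu, clusterin, at -0.45.

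Stress-linked lists rose where they passed the test. Of 29 heat shock chaperones 4 rose and 0 fell, where 2.74% of all genes were called higher, and all 29 lay above 0, with a median of 0.26. The pair medians were 0.04, 0.33 and 0.36, and without the replicate 1 pair 19 were called, as were 1251 of all 13233 genes in that direction. Hspa1b had 283, 9670 and 8706 with vehicle and 450, 19120 and 19925 with fulvestrant. Replicate 1 was far below the others in both groups. Hspa1a (0.92) is a near-identical copy whose reads cannot be told from those of Hspa1b, and Hspb8 (0.51) and Bag3 (0.44) were the other rises. Of 34 hypoxia and glycolysis genes 6 rose and 0 fell, led by Ndrg1 (5146 ± 709 to 9071 ± 173, SD, n = 3) and the glucose transporter Slc2a1 (0.68), with pair medians of 0.11, 0.32 and 0.43. Of 29 antioxidant genes 8 rose and 0 fell, among them Gpx3 (2.58-fold), a secreted glutathione peroxidase, Hmox1 (0.78), heme oxygenase, and Selenop (0.73), a selenium carrier. Of 30 unfolded protein and integrated stress response genes 6 rose, including Atf3 (1.03), Slc7a11 (0.92), the cystine transporter, and the amino acid transporters Slc7a5 (0.84) and Slc3a2 (0.55). Without the replicate 1 pair, where 1251 of all genes were called higher, the hypoxia and glycolysis list had 21 called higher. The antioxidant list then had 14 higher and 1 lower, and the stress response list 12 higher. The endoplasmic reticulum chaperones Hsp90b1 (-0.08, uncertain in that 5.4% of its exon sequence is shared with another gene) and Canx (0.10) were not called.

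**Figure D4:**
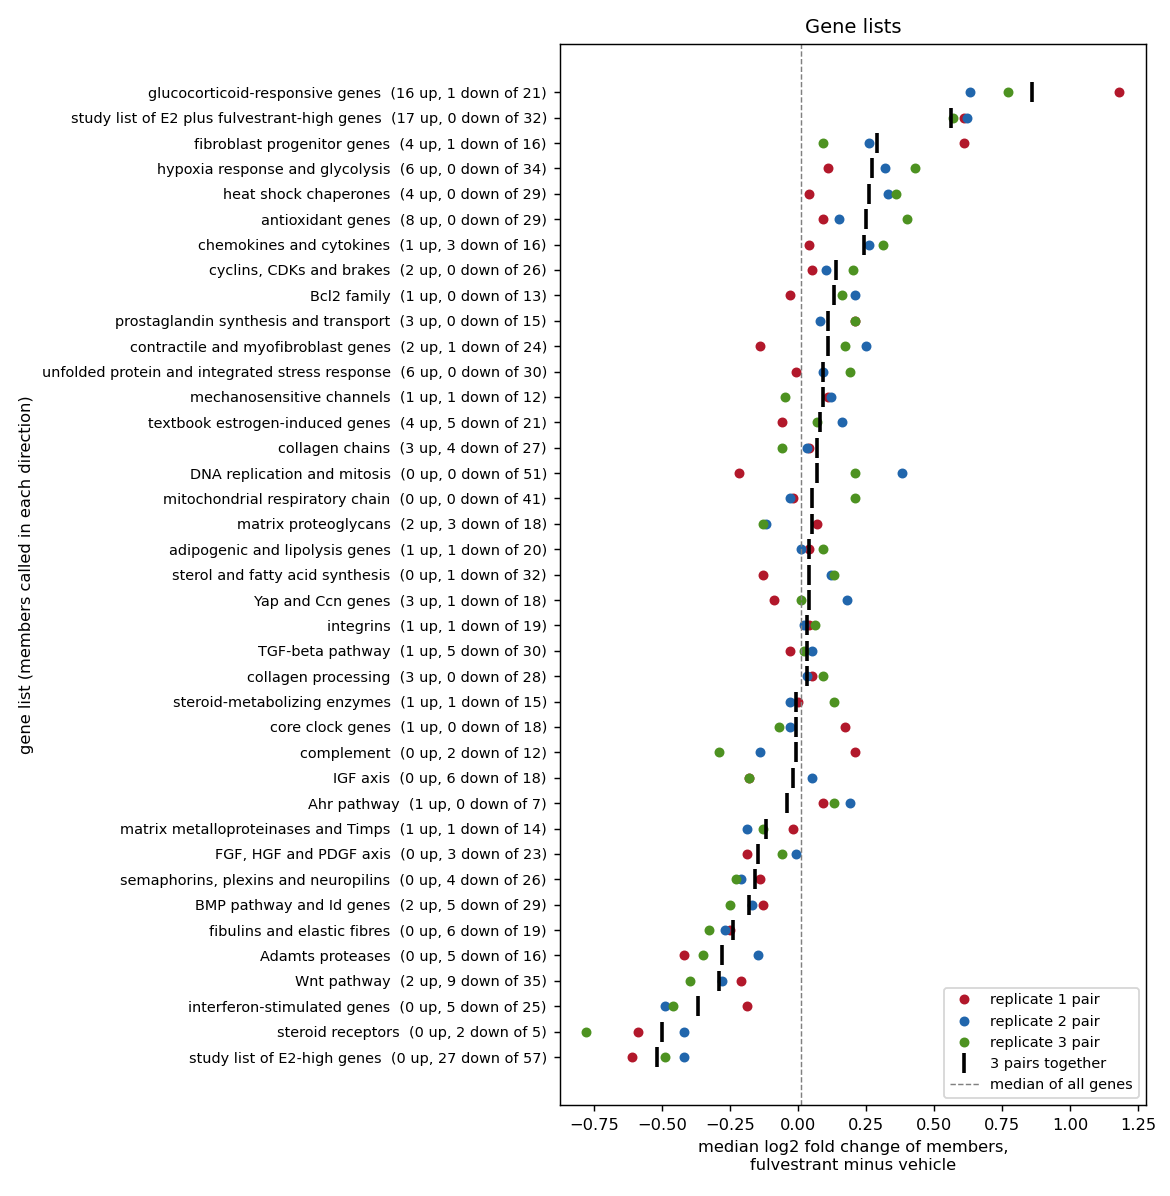
Median log2 fold change (fulvestrant minus vehicle) of the measured members of each gene list, for each same-numbered pair (colored points) and for the 3 pairs together (black marks), with the members called in each direction in brackets. The dashed line is the median of all genes, 0.01. The glucocorticoid-responsive list lies farthest right at 0.86 and the study's E2-high list farthest left at -0.52.

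Proliferation genes gave no call. Of 51 DNA replication and mitosis genes 0 were called in either direction by limma, and the pairs differed in sign, with medians of -0.22 in pair 1, 0.38 in pair 2 and 0.21 in pair 3. At an unadjusted p under 0.05 there were 6, limma-voom called 2 higher and 0 lower, and without the replicate 1 pair 13 were called higher, beside 1251 of all genes. Mcm4, a replication helicase subunit, had 1280 ± 97.9 and 1279 ± 89.1 (SD, n = 3). Among 26 cyclins, kinases and brakes, 2 rose, Gadd45g (0.91) and Cdkn1c (0.85), which restrain the cycle, a share of 7.69% that is near the 5.23% of all genes. Of the 41 mitochondrial respiratory chain genes 0 were called by limma or limma-voom and 0 had an unadjusted p under 0.05, and their range was -0.06 to 0.17. Of 32 sterol and fatty acid synthesis genes, Fads2, a desaturase, was the single call (-0.66).

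The remaining lists held 1 to 3 called members each, where 5.23% of all genes were called. Ptgs2, the inducible cyclooxygenase, had 955, 7181 and 7036 with vehicle and 1523, 14506 and 14625 with fulvestrant, and Ptgs1 rose too (0.56). Replicate 1 was lower for Ptgs2 in both groups, and each pair rose (0.91, adjusted p = 0.00566). Abcc4, a prostaglandin exporter, rose 1.38-fold. Of 20 adipogenic genes Cebpb (0.57), a differentiation factor, rose and Ebf1 (-0.44), a lineage factor, fell, and of 13 Bcl2 family genes Mcl1 (0.50), a survival factor, rose. Tiparp, a target of the aryl hydrocarbon receptor, rose from 1892 ± 399 to 4399 ± 2425 (SD, n = 3).

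The same drug was then compared in the E2 groups, whose 6 libraries are not used in the comparison above. With E2 present 609 genes were higher (4.6%) and 539 lower (4.07%) with fulvestrant. Of the 362 genes raised by fulvestrant alone, 288 were also called higher with E2 (79.6% of the 362 and 47.3% of the 609). Of the 330 lowered, 250 were also called lower with E2 (75.8% of the 330 and 46.4% of the 539). The sign was shared by 360 of the 362 and by 325 of the 330. Across all genes the log2 changes correlated at a Pearson r of 0.75, and across the 692 called genes, which were chosen for the size of one of the measures, at 0.96. These are correlations across genes within the same replicate numbers, and genes are not independent. The median change of the 362 genes was 0.66 without E2 and 0.54 with E2, and that of the 330 was -0.72 and -0.61. Both sets were chosen by the change without E2, so smaller medians with E2 are expected from that choice alone. They do not show a weaker drug effect with E2.

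**Figure D5:**
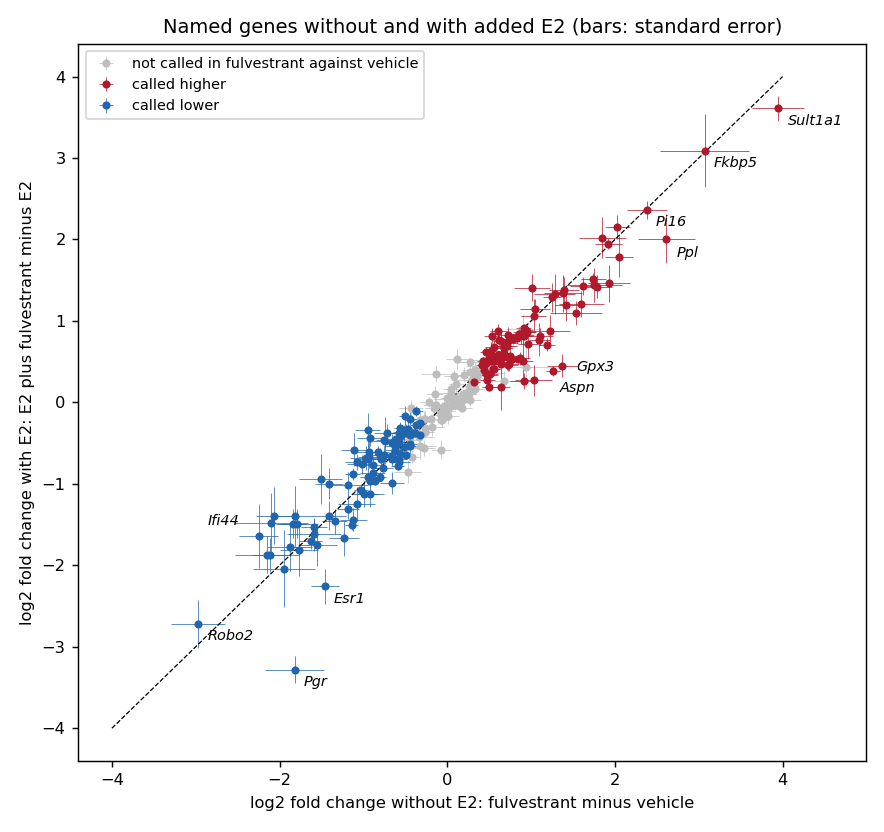
Log2 fold change of the named genes with fulvestrant in the absence of E2 (horizontal) and in its presence (vertical), with standard errors as bars. The dashed line marks equal changes. Most called genes lie near the line, Pgr and Esr1 lie below it, and Aspn and Gpx3 lie to the right.

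The difference between the drug effects was tested as an interaction in all 12 samples. By limma 0 genes passed an adjusted p of 0.05, and 501 had an unadjusted p under 0.05 (0 and 508 by limma-voom). The smallest adjusted p was 0.237, for Aspn. Of the 692 called genes, 68 had an unadjusted interaction p under 0.05. Those genes were chosen by the drug effect without E2, which enters the difference, so the choice itself shapes this count. For Pgr the drug effect was -1.82 without E2 and -3.28 with E2, a difference of -1.46 (SE 0.38, adjusted p = 0.944). For Esr1 it was -1.46 and -2.26, a difference of -0.81 (SE 0.28, adjusted p = 0.944). For Aspn it was 1.26 and 0.39, a difference of -0.86 (SE 0.13). With the replicate 1 samples left out 11 genes passed.

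E2 itself moved few genes against the same vehicle samples, with 43 higher (0.325%) and 14 lower (0.106%). The vehicle samples are shared, so the values are only set side by side. Pgr averaged 71.7 with vehicle, 239 with E2, 23.4 with E2 plus fulvestrant and 16.9 with fulvestrant alone, and its change with E2 was 1.88 (adjusted p = 0.0143). Esr1 averaged 348, 550, 126 and 133 in that order (0.72 with E2, adjusted p = 0.0727). Fkbp5 averaged 734, 749, 6300 and 6023, and Robo2 440, 355, 41.7 and 45.4. Neither was called with E2, at changes of 0.08 (SE 0.08) and -0.40 (SE 0.13). Aspn averaged 6421, 11981, 16756 and 16487, and it was called higher with E2 (1.05, adjusted p = 0.0017) as well as with fulvestrant alone. Gpx3 (1.10 with E2) and Col5a3 (0.81 with E2) were also called higher with either agent.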

How the data were processed

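RNA-Seq of 12 samples (4 groups of 3) was used, with groups and replicate numbers from the sample labels. According to the methods, the authors used Trimmomatic 0.39 for trimming, SortMeRNA against ribosomal sequence, STAR 2.5.2 for alignment (mm10) and HTSeq 0.13.5 for gene counts. The authors then dropped counts under 10, scaled with DESeq2 (median of ratios) and named ComBat_seq and removeBatchEffect against batch effects. What the authors deposited is a signal for each gene in each sample, in effect read counts over 1 factor per library. All of them (100.0%) came out as whole reads within 0.001, and the samples still separated by replicate number, so the listed values kept that variation. A minimum of 10 reads in every sample leaves genes below it out of the table and gives no floor for them. Reads per library limit the precision of low genes, and errors given are between samples.

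Identifiers were matched to GENCODE M21 (GRCm38), which gave a symbol for 13149 of 13233. Values were analysed as log2(value + 1) with limma 3.58.1 (R 4.3.3), with variance trend, the replicate number as a block and Benjamini-Hochberg adjustment over all genes. Calls needed an adjusted p under 0.05 together with a fold over 1.2. Fulvestrant against vehicle was fitted on those 6 samples, E2 plus fulvestrant against E2 and E2 against vehicle likewise on their own 6, and the interaction on all 12. Deviations from the group means correlated at 0.842, 0.697 and 0.65 for equal numbers 1 to 3. Unequal numbers among replicates 2 and 3 correlated more highly than their equal numbers (0.736 and 0.721). These correlations set replicate 1 apart from the others but do not pair replicates 2 and 3 by number. The fits were also run on simulated data, in which same-numbered samples shared their level and the spread was fixed. Such data cannot test the block or the spread of each gene. The members and gene lists were chosen with earlier results of these data known. Named genes were the 12 largest rises and falls among called genes with 1 direction in all pairs, up to 5 called and 2 abundant uncalled members of each list, and fixed names such as Esr1, Pgr, Fkbp5 and Pi16. Other members were named after their values were seen. Exon overlap was computed on the annotation, and genes over 5% are given as uncertain. Promoter windows came from RefSeq (GRCm38.p6). Figures were drawn with matplotlib 3.10.9. Alternatives were no block, replicate 1 against the others as the block, other pseudocount, filter, scaling and variance settings, all 12 samples, each replicate left out, and limma-voom. A few list members are not reported here.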

Additional observations from a re-analysis of the deposited data

How the results depend on the processing

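The number of genes called depended on the block and on the spread allowed to each gene. Without the replicate block 0 genes were called higher and 0 lower, with replicate 1 against replicates 2 and 3 as the block 723 and 637, without the variance trend 48 and 56, and with all 12 samples in the fit 895 and 753. Leaving out each replicate in turn gave 9 to 1251 genes higher and 11 to 957 lower, the lowest without replicate 3 and the highest without replicate 1. The cause of these differences was not tested. A pseudocount of 10 (365 and 334), a mean of at least 100 (330 and 303), quantile normalization (314 and 316), the adjusted p alone (362 and 330) and limma-voom, chosen after seeing the data (368 and 481), stayed within 1.5 times. The planned edgeR and DESeq2 fits were not run, and limma-voom on the recovered whole reads was fitted in their place. Of 183 called genes with values above, 183 kept the call with a pseudocount of 10, 180 with limma-voom, 170 with quantile normalization, 34 without the variance trend, 46 without replicate 2 and 11 without replicate 3, and 0 of them changed sign. For the interaction, 0 genes passed in the fit with the replicate block and 0 to 11 with a replicate left out (11 without replicate 1).

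Uncalled genes near 0 took either sign. Quantile normalization put Rora at 0.00, Sparc at -0.02 and Plxna1 at -0.06, and limma-voom put Sparc at -0.03 and Plxna1 at -0.04. With a replicate left out the log2 changes ranged from -0.05 to 0.15 for Rora, -0.30 to 0.16 for Cyp1b1, -0.03 to 0.03 for Sparc, -0.16 to 0.15 for Lox, -0.07 to 0.10 for Fbln2, -0.17 to 0.05 for Fbn1, -0.06 to 0.23 for Adamts5, -0.29 to 0.14 for Adamts1, -0.13 to 0.04 for Bmp1, -0.07 to 0.05 for Plxna1, -0.01 to 0.23 for Myh9, -0.10 to 0.17 for Rrm1, -0.08 to 0.11 for Mcm4, -0.09 to 0.06 for Ccnd2 and -0.34 to 0.28 for C1s1.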

Other observations

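The genes below were also called and were chosen after their values were seen. The smallest adjusted p by limma (0.00082) was shared by AW551984 (-1.45, SE 0.07), a gene without a settled name, and Ptn, the heparin-binding growth factor pleiotrophin, which fell by 1.66 (SE 0.07) on the log2 scale. Rarres2, the chemoattractant chemerin, changed by -1.78 (SE 0.31), Cpxm1, a carboxypeptidase-like secreted protein, by -1.48, and Cemip, which breaks down hyaluronan, by -1.38 (SE 0.24). The guidance receptors Unc5c (-1.47, SE 0.12) and Epha7 (-1.57, SE 0.33) were called lower along with Robo2, as were Daam2 (-1.28), a formin of the Wnt pathway, and Tox (-1.70, SE 0.12), a nuclear factor.

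Among the genes called higher were Il1rl1, the IL-33 receptor (1.70, SE 0.18), Cd80, a costimulatory ligand (1.70, SE 0.22), Lgals3, galectin-3 (1.55, SE 0.13), and Aldh1a1, which makes retinoic acid (1.63, SE 0.17). Rgs16 (1.17) and Rgs2 (1.09), regulators of G protein signaling, and Fosl1 (1.21), an AP-1 subunit, were also called higher. The interferon-inducible p200 genes Ifi204 (1.10, SE 0.20) and Ifi207 (adjusted p = 0.0498 by limma) were called higher while the listed interferon-stimulated genes that were called were lower, and these paralogs share sequence, so their separate levels are uncertain.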
